A study of Mus musculus with 9 samples.

Results

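The transcripts of 10 genes of the ATF4 branch of the integrated stress response (Atf4, Atf3, Atf5, Ddit3, Trib3, Chac1, Asns, Sesn2, Ppp1r15a and Xbp1) were followed between low-MYC and high-MYC MEFs. They were chosen by gene name, with earlier results of these data known, from the 19769 genes of the RNA-seq table, where all 10 were found. Of the 10, 9 passed the filter on low values that 11870 genes passed, and Atf3 did not. Counts of members beside the share of all tested genes therefore describe the members and are no test of the set. MEFs are primary mouse embryonic fibroblasts. The cells of both RNA-seq groups came from Myc-Egfp+/+ mice, in which the endogenous MYC protein carries a GFP tag. All of these cells received the proteasome inhibitor MG-132 (20 µM for 6 h) and were then sorted into low-MYC and high-MYC cells by GFP intensity and left overnight in culture. No RNA-seq library of cells without MG-132 was analysed here, so both RNA-seq groups share a treatment that is itself known to activate this stress response. FUBP1 ChIP-seq peaks of primary MEFs at steady state (1 sample) and a TACh-seq table, whose labels are those of WT MEFs and of KOKD MEFs (Fubp1 knockout with knockdown of Fubp2), were used at the members' loci. Each RNA-seq group has 2 libraries, which are technical replicates, so p-values measure the spread between these libraries and not between cell populations or mice.

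The integrated stress response starts with kinases that phosphorylate the translation factor eIF2. General translation then slows, while the mRNA of the transcription factor ATF4, which carries upstream open reading frames, is translated more, so the level of the Atf4 transcript need not follow that of the protein. ATF4 with C/EBP partners raises genes for amino acid supply, redox balance, feedback and cell death; endoplasmic reticulum stress reaches it through the kinase PERK, while the IRE1 and ATF6 arms act through the transcription factors XBP1 and ATF6.

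ATF4 acts at C/EBP-ATF response elements, whose core was searched as TGATGNAA on both strands in the promoters of the members, since these are the sequences through which several of them are known to answer ATF4. Promoters, 250 bases before to 50 bases after each RefSeq start (GRCm38.p6), were matched for 10 of 10 members (11 promoters). The core lay in promoters of 4 members, and in 1304 of the 32851 promoters of the table (3.97%) or 1.99% of the 10552 promoters of tested genes. The cAMP response element TGACGTCA, a palindrome that ATF and CREB proteins are known to bind, lay in 1 member promoter, in 588 of all promoters (1.79%) and in 3.11% of those of tested genes. The windows lying before the RefSeq start are printed 5′ to 3′ in the direction of the gene, with the matched bases in capitals: Atf3 (chr1:191183425-191183454, minus strand, match at bases -110 to -103 from the start), Chac1 (chr2:119351027-119351078, plus strand, -193 to -186), Asns (chr6:7693214-7693243, minus strand, -23 to -16) and Ppp1r15a (chr7:45526269-45526302, minus strand, -12 to -5).
Atf3: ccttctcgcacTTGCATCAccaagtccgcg
Chac1: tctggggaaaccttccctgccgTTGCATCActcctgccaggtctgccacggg
Asns: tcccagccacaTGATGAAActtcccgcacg
Ppp1r15a: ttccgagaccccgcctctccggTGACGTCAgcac
In Atf3 and Chac1 the core is read on the opposite strand and the matched bases are the same, TTGCATCA. The match of Trib3, TTACATCA, lay at bases 14 to 21 after the RefSeq start and its window is not shown. The start of the RNA-seq table, which gives the outermost annotated base, differs from that of RefSeq. By it, the Asns match begins 22 bases and the Atf3 match 34596 bases inside the gene, while the Trib3 match begins 14 bases before the gene. The ER stress response element that XBP1 and ATF6 are known to bind, searched as CCAAT and CCACG 9 bases apart, was in 0 member promoters and in 39 of all promoters (0.119%). A match describes letters in this window only.

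Values are spike-in-normalized FPK, fragments per kilobase of transcript divided by a score from ERCC transcripts that were spiked in by cell number. They therefore stand for mRNA per cell, up to a common factor. The values summed to 46321 and 48291 in low-MYC and to 102853 and 109090 in high-MYC libraries, so a gene with the same share in every library is higher per cell in high-MYC. Each gene was therefore also expressed as its share of the library total, in parts per 1000000 (ppm). Read counts are not used here, and the depth is unknown; the steps between low values put the reads of the other libraries at 0.924 to 1.04 times those of low-MYC replicate 1. Myc itself, the gene used for sorting, stood at 9.81 and 9.86 in low-MYC and 20.3 and 20.5 in high-MYC libraries, while its share was 212 and 204 ppm against 197 and 188 ppm.

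Per cell, every tested member was higher in high-MYC MEFs. On the log2(normalized FPK + 0.1) scale, 9 of 9 passed in limma at an adjusted p under 0.01 (Benjamini-Hochberg, over all tested genes), a call that 97.1% of all tested genes received. The members' median log2 fold change was 0.83, with a range from 0.61 to 1.34, beside a median of 1.03 over all tested genes. Of the 9, Sesn2 and Xbp1 also reached a fold change of 2, which 55.1% of the tested genes did. As a share of the library total, the picture turned: 8 of the 10 members, Atf3 included, had both high-MYC libraries below both low-MYC libraries, while 28.4% of all tested genes did. Sesn2 overlapped, and Xbp1 alone had both high-MYC libraries above both low-MYC libraries, as had 33.9% of tested genes.

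**Figure D1:**
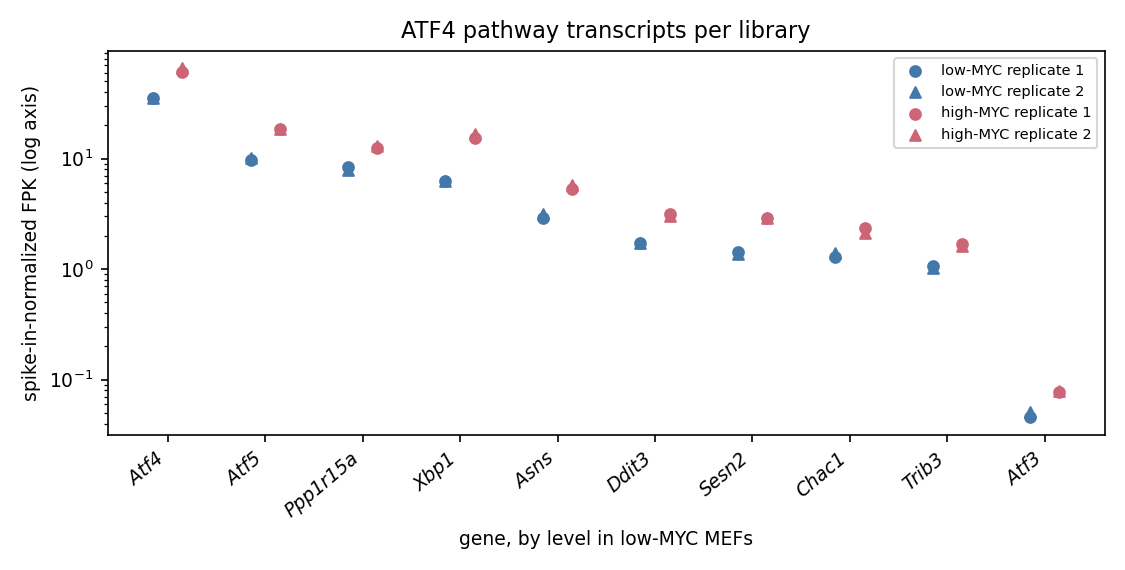
Spike-in-normalized FPK (log axis) of the 10 genes in each of the 4 libraries, with low-MYC in blue, high-MYC in red, circles for replicate 1 and triangles for replicate 2. Every gene lies higher in both high-MYC libraries, from Atf4 at 35.6 to 65.9 down to Atf3 at 0.0458 to 0.0784.

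Atf4 (ENSMUSG00000042406, chr15:80255184-80257541, plus strand, mm10) encodes the transcription factor at the centre of the pathway. It was the most abundant member per kilobase in every library and ranked 221 of all genes by mean level. Its normalized FPK was 35.6 and 35.7 in the low-MYC libraries and 61.0 and 65.9 in the high-MYC libraries. The groups did not overlap, with means of 35.6 ± 0.0803 and 63.5 ± 3.48 (SD, n = 2 each), a ratio of 1.78. Per cell it rose by a log2 fold change of 0.83 (SE 0.0529, adjusted p = 2.63e-05, limma with Benjamini-Hochberg adjustment). As a share of the library total, Atf4 took 768 and 739 ppm in low-MYC but 593 and 604 ppm in high-MYC libraries. That share lay 20.5% lower, a log2 difference of -0.33 (SE 0.0337, 95% interval -0.42 to -0.24, adjusted p = 0.0139). Only 2.46% of the tested genes had a lower share difference.

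Xbp1 (ENSMUSG00000020484, chr11:5520659-5525893, plus strand), the target of IRE1 splicing, went the other way. Its normalized FPK was 6.22 and 6.32 in low-MYC and 15.5 and 16.7 in high-MYC libraries, a ratio of means of 2.57. The per-cell log2 fold change was 1.34 (SE 0.0525, adjusted p = 1.04e-05), the largest of the members. Its share was 134 and 131 ppm in low-MYC and 150.4 and 153 in high-MYC libraries, so that the groups were apart with high-MYC above. The log2 difference in share was 0.19 (SE 0.0310, 95% interval 0.11 to 0.28, adjusted p = 0.0359), at the 87.3th percentile of tested genes. The gene level does not separate the spliced from the unspliced Xbp1 transcript. Because Atf4 and Xbp1 come from the same library, their ratio needs no scaling: it was 5.71 and 5.64 in low-MYC and 3.94 and 3.94 in high-MYC libraries. The ratio was thus lower by a factor of 0.694 in high-MYC MEFs, and by 0.690 to 0.698 with any 1 library left out; the ratios given here were chosen after values were seen and carry no test.

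The other regulators of the set are transcription factors downstream of ATF4. Atf5 (ENSMUSG00000038539, chr7:44812256-44816658, minus strand), itself translated under eIF2 phosphorylation, had 9.74 and 10.1 normalized FPK in low-MYC and 18.5 and 18.6 in high-MYC libraries. It rose per cell by a log2 fold change of 0.90 (SE 0.0410, adjusted p = 1.17e-05), and its share lay 16.4% lower (log2 difference -0.26, SE 0.0379, adjusted p = 0.0305). Ddit3 (ENSMUSG00000025408, chr10:127290774-127296288, plus strand) encodes CHOP, a factor tied to cell death under lasting stress. Its normalized FPK was 1.73 and 1.74 in low-MYC and 3.13 and 3.00 in high-MYC libraries, and its shares were 37.4 and 36.1 against 30.5 and 27.5 ppm. Both scales separated the groups, in opposite directions: the per-cell log2 fold change was 0.78 (SE 0.0456, adjusted p = 1.98e-05) and the log2 difference in share was -0.33 (SE 0.0593, adjusted p = 0.0438). Atf3 (ENSMUSG00000026628, chr1:191170296-191218039, minus strand), a stress-induced repressor and activator, was at a very low level and was not tested. It stood at 0.0458 and 0.0506 in low-MYC and 0.0769 and 0.0784 in high-MYC libraries, which is 0.990 and 1.05 against 0.747 and 0.719 ppm. Its share was 28.0% lower in high-MYC, a value without a test.

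**Figure D2:**
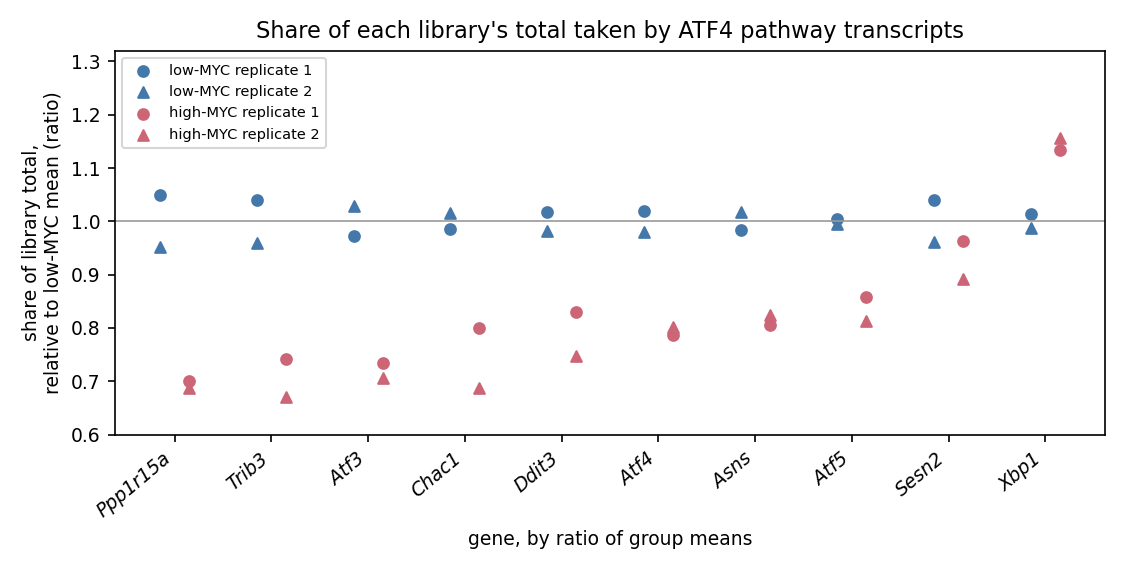
Share of the library total of each gene in each library, divided by the mean share in low-MYC (ratio, linear axis; colours and shapes mark group and replicate). Ppp1r15a, Trib3 and Atf3 lie lowest in high-MYC, Sesn2 overlaps, and only Xbp1 lies above its low-MYC level, by 14.5%.

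The feedback genes Ppp1r15a and Trib3 had the lowest share differences of the tested members. Ppp1r15a (ENSMUSG00000040435, chr7:45522916-45526268, minus strand) encodes GADD34, which brings phosphatase to eIF2 and so ends the response. Its normalized FPK was 8.38 and 7.92 in low-MYC and 12.4 and 12.9 in high-MYC libraries. Its shares did not overlap between groups, at 181 and 164 against 121 and 119 ppm. The difference in share was -0.52 on the log2 scale (SE 0.0561, 95% interval -0.67 to -0.37, adjusted p = 0.0158), or 30.6% lower, and only 0.792% of tested genes had a lower value. Ppp1r15b, the constitutive counterpart that binds the same phosphatase, had a log2 share difference of -0.19 (adjusted p = 0.0654). Within a library, the ratio of Ppp1r15a to Ppp1r15b was 1.49 and 1.37 in low-MYC and 1.18 and 1.09 in high-MYC libraries, without overlap.

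Trib3 (ENSMUSG00000032715, chr2:152337422-152344032, minus strand), a pseudokinase that restrains ATF4 and CHOP, had 1.06 and 1.02 normalized FPK in low-MYC and 1.68 and 1.61 in high-MYC libraries. In ppm these were 22.9 and 21.2 against 16.4 and 14.8. Trib3 had the smallest per-cell change of the members (log2 fold change 0.61, SE 0.050, adjusted p = 6.71e-05) and a share 29.4% lower (log2 difference -0.48, SE 0.0677, adjusted p = 0.0284). Against Ddit3, its own upstream factor, Trib3 stood at a ratio of 0.614 and 0.586 in low-MYC and 0.537 and 0.538 in high-MYC libraries.

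The effector genes showed the same order of scales. Chac1 (ENSMUSG00000027313, chr2:119351229-119354381, plus strand), which degrades glutathione, had 1.30 and 1.39 normalized FPK in low-MYC and 2.34 and 2.13 in high-MYC libraries. Its share lay 25.6% lower, with a log2 difference of -0.41 (SE 0.0789, adjusted p = 0.0496), and its per-cell log2 fold change was 0.69 (SE 0.0654, adjusted p = 0.000128). Asns (ENSMUSG00000029752, chr6:7675169-7693254, minus strand), asparagine synthetase, carries the core printed above just before its RefSeq start. It had 2.92 and 3.15 against 5.30 and 5.76 normalized FPK, and 63.0 and 65.1 against 51.6 and 52.8 ppm. Its groups were apart on both scales, with a per-cell log2 fold change of 0.85 (SE 0.0632, adjusted p = 4.69e-05) and a log2 difference in share of -0.29 (SE 0.0338, adjusted p = 0.0187). Sesn2 (ENSMUSG00000028893, chr4:132492032-132510501, minus strand), a leucine sensor that dampens mTORC1, was the member whose share did not separate the groups. It had 1.43 and 1.37 against 2.93 and 2.88 normalized FPK, a per-cell log2 fold change of 1.00 (SE 0.0452, adjusted p = 1.14e-05). Its shares were 30.8 and 28.5 in low-MYC and 28.5 and 26.4 in high-MYC libraries, a log2 difference of -0.11 (SE 0.0599, 95% interval -0.27 to 0.06, adjusted p = 0.308).

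On the share scale 0 members passed the adjusted p under 0.01 in limma, in either direction; of all tested genes 0.531% passed as lower and 1.78% as higher. At an adjusted p under 0.05 the count was 7 of 9 lower (Atf4, Atf5, Ddit3, Trib3, Chac1, Asns and Ppp1r15a) and 1 of 9 higher (Xbp1), beside 3.89% of tested genes lower and 7.77% higher. At an unadjusted p under 0.05 the members were also counted as 7 lower and 1 higher, beside 12.9% and 18.7% of tested genes. The members' median log2 share difference was -0.33, beside 0.01 over all tested genes, whose 5th to 95th percentile ran from -0.23 to 0.36. These calls at 0.05 rest on all 4 libraries: without low-MYC replicate 1, and also without low-MYC replicate 2, 1 member (Ppp1r15a) was lower at 0.05, and without either high-MYC replicate 0 were.

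The order of levels per kilobase in low-MYC was Atf4, Atf5, Ppp1r15a, Xbp1, Asns, Ddit3, Sesn2, Chac1, Trib3 and Atf3, and of these neighbours Sesn2 and Chac1 overlapped. In high-MYC, Xbp1 stood above Ppp1r15a, with no overlap between the libraries of the pair. The ratio to Atf4 within a library overlapped between the groups for Asns, Ddit3, Chac1 and Atf5. Asns per Atf4 was 0.0820 and 0.0882 in low-MYC and 0.0869 and 0.0874 in high-MYC libraries. Ddit3 per Atf4 was 0.0487 and 0.0488 against 0.0514 and 0.0455, and Chac1 per Atf4 was 0.0364 and 0.0390 against 0.0383 and 0.0323. For Trib3, Ppp1r15a and Atf3 the ratio lay lower in both high-MYC libraries, and for Sesn2 higher. Trib3 per Atf4 was 0.0299 and 0.0286 against 0.0276 and 0.0245, and Ppp1r15a per Atf4 was 0.236 and 0.222 against 0.204 and 0.196. Sesn2 per Atf4 was 0.0401 and 0.0385 in low-MYC and 0.0481 and 0.0437 in high-MYC libraries. Over the 4 libraries, with mean-centred log2(normalized FPK + 0.1), the member nearest to Atf4 was Asns (root mean square difference 0.0366), followed by Atf5 (0.0521) and Ddit3 (0.0654), and the farthest was Xbp1 (0.257). Among all tested genes the nearest were Ttc12 (0.00169), Spopl (0.00405), Pigg (0.00432), Cnot2 (0.00433) and Tmem68 (0.00445). These genes lay at 0.126 to 0.762 normalized FPK, where the pseudocount of 0.1 shrinks the change, while it hardly does so for Atf4. Their log2 share differences ran from -0.16 to 0.07, beside -0.33 for Atf4, so they do not share its change. With 4 points in 2 groups, this likeness describes little more than the size of the group difference after the pseudocount.

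The wider pathway was described by lists of its genes, also chosen with earlier results of these data known. Their counts beside the shares of all tested genes are descriptions and no test of the lists. Upstream, 17 of 17 genes for the eIF2 kinases, eIF2, its exchange factor and its phosphatase were higher per cell. Of all tested genes, 97.1% received that call. The median log2 fold change of the list was 1.03, beside 1.03 over all tested genes. On the share scale 0 of 17 passed at 0.01 in limma in either direction (2 lower and 2 higher at an unadjusted p under 0.05); at an adjusted p under 0.05, 1 was higher. These counts are near or below the shares of all tested genes (12.9% lower and 18.7% higher unadjusted, 7.77% higher adjusted). The list had a median of -0.04 on the share scale. Of the kinases, Eif2ak3 (PERK, the sensor of endoplasmic reticulum stress) had 0.127 and 0.142 normalized FPK in low-MYC and 0.347 and 0.383 in high-MYC libraries, with a log2 share difference of 0.21 (adjusted p = 0.0736). Eif2ak2 (PKR, the sensor of double-stranded RNA) had 0.604 and 0.618 against 1.57 and 1.73, with a log2 share difference of 0.25 (adjusted p = 0.0281). For the other two kinases, Eif2ak1 (HRI, the heme-regulated kinase) and Eif2ak4 (GCN2, the sensor of uncharged tRNA), the share differences were -0.04 (adjusted p = 0.471) and -0.10 (adjusted p = 0.183). Outside the kinases, Eif2b2 (-0.20, adjusted p = 0.0594) and Eif2b3 (-0.13, adjusted p = 0.159), both exchange factor subunits, lay lowest with Ppp1r15b, while the eIF2 subunit Eif2s3x stood at 0.04 (adjusted p = 0.447).

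Among 21 amino acid and one-carbon targets of ATF4, 18 were tested, since Cth, Cbs and Slc7a11 were under the filter. All 18 were higher per cell, a call that 97.1% of tested genes received, with a median log2 fold change of 0.85 beside 1.03 over all tested genes. On the share scale 1 of 18 was lower at 0.01 in limma, beside 0.531% of tested genes, and 0 were higher. At an unadjusted p under 0.05, 11 were lower and 1 was higher, beside 12.9% and 18.7% of tested genes. At an adjusted p under 0.05 it was 10 of 18 lower, beside 3.89%. The median log2 difference was -0.21, beside 0.01 over all tested genes. Slc7a3, a carrier of cationic amino acids, was the gene called: it had 0.178 and 0.176 normalized FPK in low-MYC and 0.219 and 0.230 in high-MYC libraries, and its share fell by 0.61 on the log2 scale (adjusted p = 0.00792). Slc3a2, the heavy chain shared by several amino acid exchangers, had 3.59 and 3.60 against 5.90 and 5.95 normalized FPK, and a log2 share difference of -0.44 (adjusted p = 0.0125). Aldh1l2, a mitochondrial folate enzyme, stood at -0.43 (adjusted p = 0.0109). Not all carriers lay lower: the glutamine carriers Slc1a5 and Slc38a2 had log2 share differences of 0.29 (adjusted p = 0.0799) and 0.04 (adjusted p = 0.459), and the proline enzyme Aldh18a1 had 0.06 (adjusted p = 0.365).

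Of 20 stress targets and partners of ATF4, 19 were in the table (Batf2 was not analysed here) and 18 were tested (Fgf21 was under the filter). Per cell 17 were higher, a call that 97.1% of tested genes received. One gene, Hmox1, was called lower, as were 3 of all 11870 tested genes. On the share scale 4 of 18 were lower at 0.01, beside 0.531% of tested genes: Hmox1, Sqstm1, Vegfa and Gadd45a, the last named after its value was seen. Because the list was chosen with earlier results known, this count describes these genes and is no support for the list as a set. With low-MYC replicate 1 or 2 left out the count was 1 (Hmox1), and with high-MYC replicate 1 or 2 left out it was 0. Hmox1, heme oxygenase and a target of NRF2 as well as of ATF4, had 25.3 and 25.3 normalized FPK in low-MYC and 18.5 and 18.5 in high-MYC libraries. It was the tested gene with the lowest share difference of all, with a log2 value of -1.61 (adjusted p = 0.00168), and it also fell per cell by 0.45 on the log2 scale (adjusted p = 8.28e-05). Sqstm1, the autophagy receptor p62, another NRF2 target, fell in share by 0.72 on the log2 scale (adjusted p = 0.00305). Per cell it was higher, with 13.6 and 13.7 normalized FPK in low-MYC and 18.1 and 19.0 in high-MYC libraries. Vegfa, an angiogenic growth factor, fell in share by 0.53 (adjusted p = 0.00792), and Gadd45a, a growth arrest gene, by 0.48 (adjusted p = 0.00491) on the same scale. Cebpb, a C/EBP partner of ATF4, lay at the other end with 2.42 and 2.59 against 6.69 and 7.22 normalized FPK and a log2 share difference of 0.30 (adjusted p = 0.0139); the stress cytokine Gdf15 had 0.32 (adjusted p = 0.105) and Map1lc3b, a protein of the autophagosome, had 0.06 (adjusted p = 0.397). The list's median share difference was -0.07.

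The IRE1 and ATF6 arms, in which XBP1 acts, had a median share difference of the opposite sign to that of the members. All 24 of their listed genes were higher per cell, 21 of them at least 2-fold, with a median log2 fold change of 1.23; over all tested genes these calls reached 97.1% and 55.1%. On the share scale 0 of 24 passed at 0.01 in limma in either direction (2 lower and 12 higher at an unadjusted p under 0.05); at 0.05 it was 6 higher and 0 lower, with a median log2 difference of 0.10. Over all tested genes, 18.7% were higher at the unadjusted and 7.77% at the adjusted threshold of 0.05. The 6 were Mbtps1, Hspa5, Hsp90b1, Calr, Pdia4 and Sdf2l1. Hspa5, the chaperone BiP, had 59.1 and 62.9 normalized FPK in low-MYC and 151 and 168 in high-MYC libraries (log2 share difference 0.22, adjusted p = 0.0386). The calcium-binding chaperone Calr had 75.1 and 77.0 against 190.4 and 208 (0.22, adjusted p = 0.0270), and Mbtps1, the protease that cleaves ATF6, had a share difference of 0.22 (adjusted p = 0.0283). The sensors themselves lay at the lower end, Atf6 at -0.15 (adjusted p = 0.0720) and Ern1 (IRE1) at -0.08 (adjusted p = 0.225), as did the chaperone partner Dnajb9 at -0.10 (adjusted p = 0.158). Within a library, Ddit3 per Hspa5 was 0.0293 and 0.0277 in low-MYC and 0.0207 and 0.0178 in high-MYC libraries. Trib3 per Hspa5 was 0.0180 and 0.0163 against 0.0111 and 0.00960. Both ratios separated the groups, which restates the opposite share differences of these genes. They were chosen after values were seen and carry no test.

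**Figure D3:**
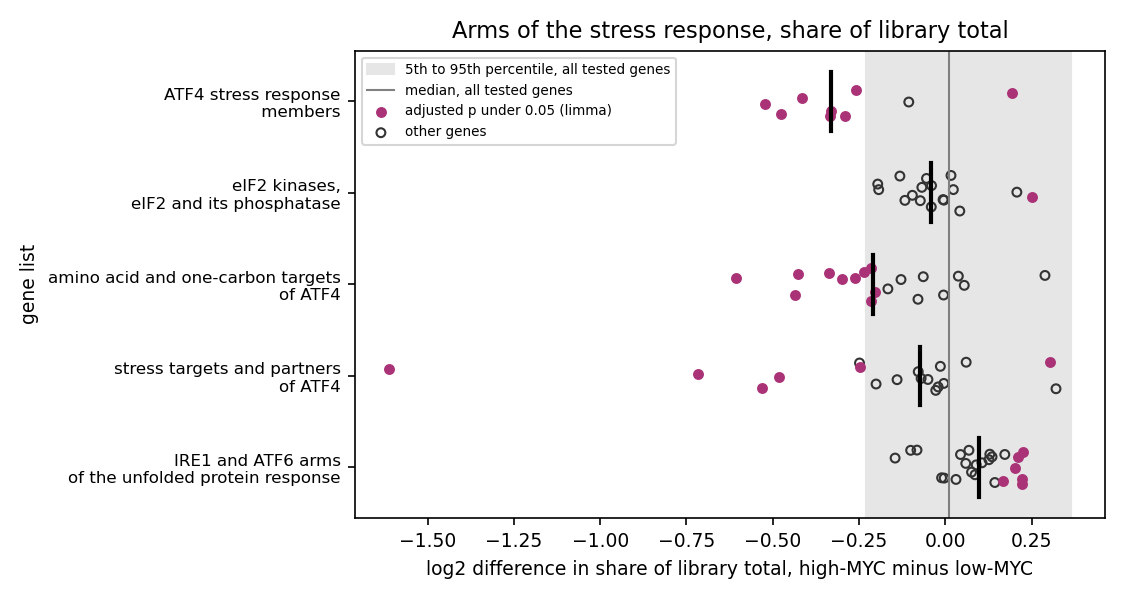
Log2 difference in share of the library total, high-MYC minus low-MYC, for each tested gene of the members and of the 4 pathway lists (points; filled at a limma adjusted p under 0.05; black bars are list medians; grey band and line give the 5th to 95th percentile and median of all tested genes). The members' median is -0.33, that of the amino acid list -0.21 and that of the IRE1 and ATF6 list 0.10.

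Genes of other cells moved with the same groups. The summed share of 15 macrophage markers was 20.5 and 27.0 ppm in low-MYC and 290.1 and 286 in high-MYC libraries. Of the 10 that were tested, 9 were higher in share at an adjusted p under 0.01 (limma), beside 1.78% of tested genes. All tested markers but Cd68 and Cd14 had a low-MYC mean under the filter of 0.1. These markers passed the filter only through the high-MYC libraries, which largely set their calls beforehand. Of the 15, Adgre1, Tyrobp and C1qa were at 0 in low-MYC replicate 1, and none was at 0 in the other libraries. The 12 fibroblast markers were present in every library, with sums of 8696 and 8478 against 9612 and 9324 ppm. Of these 12, 3 were higher in share at 0.01 and 7 at 0.05, with 0 lower at either. Over all tested genes, 1.78% were higher at 0.01 and 7.77% at 0.05, while 0.531% and 3.89% were lower. The median log2 share difference of the fibroblast markers was 0.33, beside 0.01 over all tested genes. The part of these genes, and of the cells they may mark, in the share differences of the members was not tested. In bulk libraries, fewer cells of a type and less RNA per cell cannot be told apart.

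Some members share bases with a neighbouring gene, and whether the counting used the strand is not given in the sources used here. Atf5 overlaps Nup62 by 571 bases and Il4i1 by 272 bases, Ppp1r15a overlaps Tulp2 by 717 bases, and Ddit3 overlaps Mars by 68 bases, all on the opposite strand. Sesn2 overlaps Gm12981 by 6089 bases on the same strand, where counting by strand would not separate them. The Ddit3 entry also spans another annotated gene of the same name, which shares 2925 bases with it on the same strand. These values are uncertain to the extent that reads were shared.

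FUBP1, a single-strand DNA-binding protein that acts on Myc, was mapped by ChIP-seq in 1 sample of primary MEFs at steady state, without MG-132. The study reports some cross-reaction of its ChIP antibody with FUBP2, so the peaks may hold some signal of that protein. Atf4 is also one of the genes that the study itself shows for broad FUBP1 binding. The peaks are those of chromosome 15, where Atf4 lies, called with SICER in windows of 200 bases against input and given by position only. A peak at chr15:80255401-80259800 (4400 bases, mm10) covered Atf4. It began 217 bases after the gene start and ran 2259 bases past its end, so that it held 2141 of the 2358 bases of the gene (90.8%), 1508 of its 1725 exon bases and all 1047 coding bases, but not the first bases of exon 1 or the promoter. No other annotated gene lay in it.

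**Figure D4:**
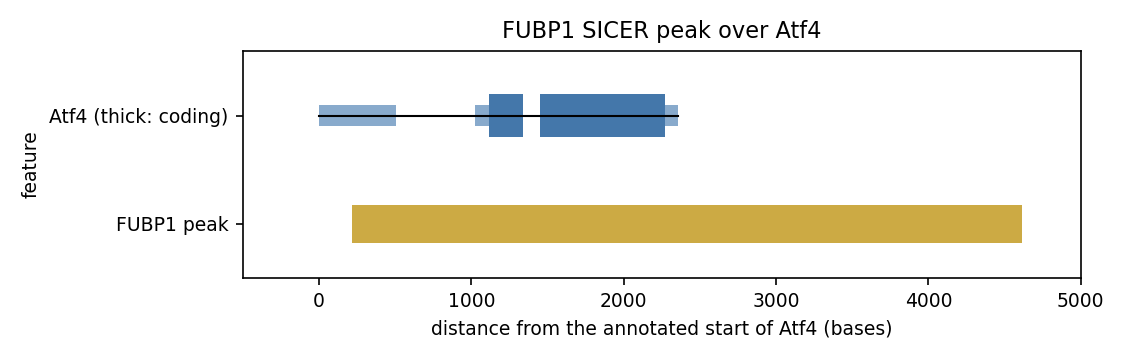
Position of the FUBP1 peak (yellow) and of the 3 exons of Atf4 (blue, thick where coding) by distance from the gene start in bases. The peak runs from base 217 to base 4616, over the whole coding sequence and 2259 bases past the end of the gene.

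The peak was of ordinary width, since the median of the 166 peaks was 4200 bases and 67 were wider. Its GC content was 53.4%, near the top of a range from 24.4% to 56.6% with a median of 39.0%. The nearest other peaks lay 170400 bases upstream and 902400 bases downstream, and the spacing between the other peaks was not examined. Of the tested genes of chromosome 15, 56 of 459 (12.2%) overlapped a peak, and of those whose mean reached 10 normalized FPK, as that of Atf4 did, 16 of 36 (44.4%) did. Of the other pathway genes on the chromosome, Slc38a2 held 2 peaks and Creld2, a chaperone of the unfolded protein response, held 0. With 1 sample and no score, the occupancy at Atf4 has no error, and it was not measured in low-MYC or high-MYC cells.

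TACh-seq marks chromatin that a nuclease can reach. Its single table, to which the labels of WT and KOKD MEFs (Fubp1 knockout with Fubp2 knockdown) all point, has no column that names a library, while its own name points to a WT replicate. Which libraries it holds is therefore not known; its 4881417 listed read positions were counted together, and the genotypes were not compared. Within 500 bases of the gene start, all members had positions, with a median of 154, whereas the median of tested genes was 95 and 23.9% of them had none. Within 200 bases the medians were 60 for members and 51 for tested genes. The tested genes were not matched to the members by level, and all starts are the outermost annotated bases. Whether the difference is particular to the members was not tested. Ddit3 had 364 positions, above 97.8% of tested genes. Sesn2 had 222, Atf5 220, Chac1 211 and Atf4 198, while Trib3 had 110, Ppp1r15a 106, Xbp1 86 and Asns 81. The window of Atf5 also holds the start of Il4i1 on the opposite strand, so its count may include positions of that promoter. Within 200 bases Atf5 had 45 positions, below the median of 51 for tested genes. Atf3 had 5 at the start used in the RNA-seq table but 262 at the RefSeq start at chr1:191183333, which lies 34706 bases inside the gene and next to the core printed above. The upper quartile of tested genes was 158 positions.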

How the data were processed

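mRNA of low-MYC and high-MYC cells (4 libraries), FUBP1 ChIP-seq peaks (1 sample) and a TACh-seq table were analysed. Per the study's methods, the authors trimmed reads, ran TopHat on the mm10 transcriptome, quantified reads in Partek Flow and divided FPK by an ERCC spike-in score. The deposited values are signal values, relative to cell number. Versions of the authors' tools are not given in the sources used here. ChIP-seq and TACh-seq reads were aligned to mm10 with Bowtie2, and the deposited TACh-seq table gives read positions with a mapping score. No per-sample column was left unassigned.

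Here log2(normalized FPK + 0.1) and log2(parts per 1000000 of the library total + 1) were compared with limma 3.58.1 (lmFit, eBayes with trend) in R 4.3.3. Genes were kept from a mean of 0.1, with Benjamini-Hochberg adjustment over all 11870 genes and an adjusted p under 0.01 as the call. A fold change with a pseudocount understates the change of low genes. Intervals are at 95%. The members, the lists and the markers were chosen with earlier results of these data known. Named are all members, the 4 eIF2 kinases, the 3 largest and 3 smallest share differences of each list, and the 5 genes nearest to Atf4. Shares sum over a fixed total, so a share can be lower because other transcripts are higher. Alternatives covered pseudocounts, filters, scaling, limma trend, replicate block, thresholds, left-out libraries and windows. Genes and coordinates follow mm10 with the GENCODE M21 annotation; promoters are from RefSeq. Python 3.11.15, pandas 2.3.3, numpy 2.4.6 and matplotlib 3.10.9 were used.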

Additional observations from a re-analysis of the deposited data

How the results depend on the processing

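The direction of the members rests on the scaling. When libraries were set to a common median instead of being scaled by the spike-in, the median of all genes moved from 1.03 to near 0 (log2), 0 of 9 members were called higher (9 with the spike-in) and 0 reached 2-fold. The members' median became -0.35, with Atf4 at -0.35, Atf5 at -0.27, Ddit3 at -0.35, Trib3 at -0.48, Chac1 at -0.42, Asns at -0.30, Sesn2 at -0.12 and Ppp1r15a at -0.53, while Xbp1 stayed positive. Under the same rescaling, or with shares instead of spike-in values, 0 genes of each of the 4 pathway lists were called higher. Members reaching 2-fold numbered 1 with the larger pseudocount and 1 to 2 with a library left out. No other alternative ended a per-cell call of a member.

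On the share scale 8 of 9 members stayed below zero and Xbp1 above under every alternative, but the calls moved. The count of members lower was 0, and it was 4 (Atf4, Trib3, Asns, Ppp1r15a) with a minimum mean of 0.5, 2 (Atf4, Ppp1r15a) with the total taken without the 100 highest genes and 7 at an adjusted p under 0.05, where 1 was higher. Members lower at 0.05 numbered 3 without a filter, 5 without the limma trend and 6 with the replicate block. For the amino acid list the count lower was 1, and it was 2 with the larger pseudocount, 0 without a filter, 4 with a minimum mean of 0.5, 3 without the 100 highest genes, 0 to 0 with a library left out and 10 at 0.05. For the stress list it was 4, and it was 1 without a filter and 0 to 1 with a library left out; 1 gene was higher with a minimum mean of 0.5, and 1 at 0.05. At 0.05, 1 gene of the eIF2 list and 6 of the IRE1 and ATF6 list were higher. The share calls of Slc7a3, Sqstm1, Vegfa and Gadd45a were lost without a filter and without any 1 library, and that of Hmox1 without either high-MYC library. Over all genes, share calls of 211 higher and 63 lower became 0 and 0 without either high-MYC replicate, 56 and 5 without low-MYC replicate 1, 53 and 3 without low-MYC replicate 2, 72 and 8 without a filter and 320 and 141 with a minimum mean of 0.5. A lone library was assumed to vary like the other group. The cause of these moves was not tested, beyond the smaller number of samples or genes.

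The libraries share replicate numbers, but nothing ties equal numbers together: deviations from the group means correlated by 0.07 on the share scale and 0.08 per cell. With the replicate number as a block, share calls were 0 higher and 0 lower, 0 in the amino acid list and 0 in the stress list, and per-cell calls were 11602 higher and 5 lower. The peak counted as over Atf4 at 1 base of overlap; with at least 50% of the peak inside the gene, 0 peaks did. The list has no score, so no stricter threshold was tried. The members' median of TACh-seq positions was 60 within 200 bases and 199.5 within 1000 bases, beside 51.0 and 127 for tested genes. Unknown depth limits the values of Atf3.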
